A study of Mus musculus with 12 samples.

Results

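The nuclear-encoded subunits of oxidative phosphorylation were described in LSK cells of mice treated with palbociclib, ruxolitinib or both. The members were the genes whose symbol in the authors' deposited tables began with Ndufa, Ndufb, Ndufc, Ndufs or Ndufv and a digit, with Uqcr, with Cox4 to Cox8 or with Atp5, together with Sdha, Sdhb, Sdhc, Sdhd and Cyc1. Each table lists 55487 genes, of which 103 matched. The 7 symbols ending in -ps and the 6 ending in -ps and a number, names mostly given to pseudogenes, were left out. This left 90 members with 89 symbols, as Atp5o has 2 identifiers. There were 40 in complex I, 4 in complex II, 9 in complex III, 19 in complex IV and 18 in complex V. Symbols set the complex, so Ndufa4, now regarded as a complex IV subunit, counted under complex I. The patterns left out Ndufab1, and Ndufb1-ps, which had a base mean of 993 and did not pass in any comparison.

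LSK cells (lineage-negative, with Sca-1 and Kit on their surface) are a rare bone marrow population of stem cells and early progenitors. They were taken by column depletion and flow sorting from C57BL/6 bone marrow in what the labels call a BMT, and all 4 groups shared a genotype given as homozygous JAK2V617F, an activating kinase mutation found in myeloproliferative neoplasms. The groups were vehicle, palbociclib, which blocks CDK4 and CDK6, ruxolitinib, which blocks JAK1 and JAK2, and both drugs together (the combination), with 3 libraries of polyA RNA each. Dose, duration and age are not in the labels, and neither is whether the allele is a knock-in or which cells the host kept. Nothing in the labels states that replicate libraries were made from different animals. The p-values thus measure only the spread between libraries as modelled in the authors' fit, which may be technical.

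The values were the authors' DESeq2 results for each drug arm against the shared vehicle libraries, and values of single libraries were not used here. Size factors solved from the tables, which stand for relative depth, ran from 1.08 to 1.19 in vehicle, 0.899 to 1.08 with palbociclib, 0.754 to 1.20 with ruxolitinib and 0.590 to 1.45 with the combination. The fit held 24 libraries, these 12 and 12 others that are not analysed here and that enter its modelled spread. The sort markers were present. Ly6a (Sca-1) stood at 1004, 2102, 1165 and 3557 normalised reads in vehicle, palbociclib, ruxolitinib and the combination, and Kit at 14276, 15506, 14933 and 19878. Ly6a rose with palbociclib (adjusted p = 0.032) and the combination (adjusted p = 1.1e-05), and Kit with the combination (adjusted p = 0.035), by DESeq2 in the authors' deposited tables. All 8 stem and progenitor genes, Ly6a and Kit among them, were measured. Their summed level in normalised reads was 48041 for vehicle, 53858 for palbociclib, 53179 for ruxolitinib and 67905 for the combination. In the authors' deposited tables, respectively, 4, 1 and 6 of those 8 rose in the same order of drugs. Of the 5 T cell genes, Cd3e, Cd3d and Trac stood at a base mean of about 1 or less and Cd3g at 2.01, while Lck stood at 386, with levels from 341 to 432 normalised reads in the 4 groups. RNA of other cell types moved with the arms and is given beside the results it touches.

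Oxidative phosphorylation moves electrons from NADH (complex I) and succinate (complex II) through ubiquinol to complex III, on by cytochrome c to complex IV and to oxygen. Complexes I, III and IV pump protons, and complex V, the ATP synthase, uses the gradient to make ATP. All subunits of complex II and most of the others are encoded in the nucleus, and the rest in mitochondrial DNA. Resting stem cells are known for a low use of this pathway, which increases as they divide and differentiate. Many of the nuclear genes carry promoter sites for NRF1, for GABP (an ETS factor) and for YY1, which are regarded as their shared regulators.

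Promoter windows from RefSeq (GRCm38.p6), 250 bases before to 50 after each start, were found for 65 of the 79 members with a base mean of at least 50. Exact matches were searched on both strands for GCGCATGC (the NRF1 core), CCGGAAG (the ETS core) and AAGATGGC (YY1), none of which contains another. The NRF1 word was found in 10 windows (15.4%), against 3.05% of all 27025 windows. The ETS word was in 17 (26.2%), against 9.93%, and the YY1 word in 10 (15.4%), against 3.19%. Among 17492 protein-coding genes the shares were 3.94%, 12.9% and 3.57%. Of the 9 members with a window that passed the test in the combination, 2 held the ETS word, 1 the NRF1 word and 0 the YY1 word. The windows below run from 150 bases before to 30 after the RefSeq start. The first 3 are the genes that rose in the combination and hold one of the words, in capitals. Then follow Cox7a2l, whose response differed most clearly between the arms, and Atp5b, the member with the highest level, which fell. Uqcrh is shown at chr4:116075041-116075220 on the minus strand, Atp5e at chr2:174464072-174464251 (minus), Ndufa6 at chr15:82354262-82354441 (minus), Cox7a2l at chr17:83514304-83514483 (minus) and Atp5b at chr10:128083157-128083336 (plus).
Uqcrh: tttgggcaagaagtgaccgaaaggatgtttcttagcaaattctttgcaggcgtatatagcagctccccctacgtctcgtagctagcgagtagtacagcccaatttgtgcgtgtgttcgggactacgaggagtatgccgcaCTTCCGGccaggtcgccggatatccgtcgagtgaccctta
Atp5e: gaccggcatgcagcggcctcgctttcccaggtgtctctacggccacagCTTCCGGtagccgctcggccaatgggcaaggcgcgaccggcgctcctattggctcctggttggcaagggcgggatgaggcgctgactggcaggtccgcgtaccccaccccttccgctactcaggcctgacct
Ndufa6: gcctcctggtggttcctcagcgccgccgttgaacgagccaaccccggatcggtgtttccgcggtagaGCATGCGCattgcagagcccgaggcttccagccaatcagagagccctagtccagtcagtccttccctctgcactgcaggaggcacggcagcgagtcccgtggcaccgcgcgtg
Cox7a2l: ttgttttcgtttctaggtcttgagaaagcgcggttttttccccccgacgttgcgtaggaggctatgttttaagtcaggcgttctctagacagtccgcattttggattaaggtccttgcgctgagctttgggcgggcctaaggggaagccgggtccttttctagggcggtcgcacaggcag
Atp5b: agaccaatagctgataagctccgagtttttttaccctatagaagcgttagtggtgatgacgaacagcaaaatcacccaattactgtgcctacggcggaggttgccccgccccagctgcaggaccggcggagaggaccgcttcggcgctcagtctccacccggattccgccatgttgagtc
The ETS word, read on the other strand as CTTCCGG, began at -10 from the start in Uqcrh and at -102 in Atp5e. The NRF1 word, also read on the other strand, as GCATGCGC, began at -83 in Ndufa6. The Cox7a2l and Atp5b windows held none of the 3 words. For Cox7a2l this covers the RefSeq start only: GENCODE begins this minus-strand gene at chr17:83517330, outside the window searched. A match is a string of letters and not a measured site. In the combination the median log2 fold change was 0.22 for the 31 members with any of the words and 0.19 for the 34 with none, in the authors' deposited table.

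Of the 90 members, 86 had a base mean above 0, 79 reached 50 and 7 lay between. The base mean is the mean of size-factor normalised read counts over all libraries of the authors' fit. The 11 members under 50 were Cox6a2 and Cox7a1 (muscle forms, base means of 22.3 and 7.44), Cox7b2, Cox8b, Cox8c, Ndufa4l2, the second Atp5o identifier, and 4 that GENCODE lists as processed pseudogenes (Ndufb4c, Ndufa11b, Cox6c2 and Ndufs6b). Adjusted p-values were deposited for 80 members with either single drug and 82 with the combination.

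Levels solved for each group were compared between genes per kilobase of transcript. In vehicle the median was 2335 normalised reads per kilobase for complex I, 2872 for complex II, 3662 for complex III, 5566 for complex IV and 5531 for complex V. Complex V held the highest members, Atp5b at 20800 and Atp5a1 at 13831, the catalytic beta subunit and its alpha partner. Next came Cox4i1 of complex IV at 12618 and Atp5g2, a c-ring subunit, at 11841. The lowest of the 79 were Cox4i2 at 59.6 and Ndufb2 at 543. With palbociclib the 5 medians were 2302, 2784, 4210, 5564 and 5630 normalised reads per kilobase, with ruxolitinib 2346, 3038, 4102, 5569 and 5802, and with the combination 2457, 2901, 4201, 6678 and 6647. The order of complexes by median was thus close to the same in each group, with complex I lowest and complexes IV and V at the top.

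**Figure D1:**
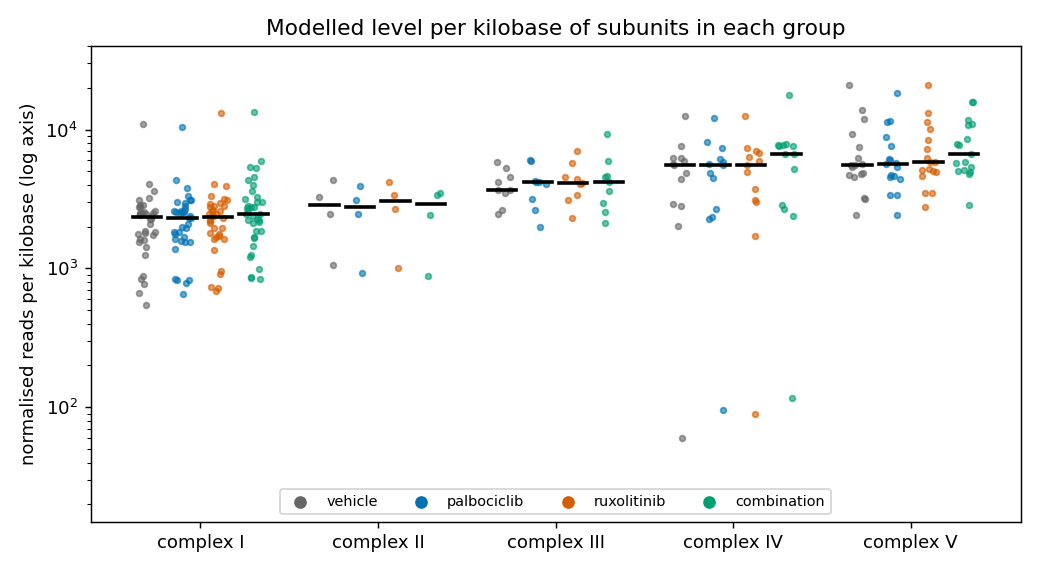
Modelled level of each of the 79 members with a base mean of at least 50, in normalised reads per kilobase of transcript (log axis), by complex and group; black bars are medians. Complex I has the lowest median in each group, from 2302 to 2457, and complexes IV and V lie between 5531 and 6678.

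Palbociclib changed no member past the test. In the authors' deposited table from DESeq2, 0 of 80 members passed at an adjusted p under 0.05, while 8.63% of the 15448 genes tested did. An unadjusted p under 0.05 in DESeq2 was found for 3 members and for 3453 of all genes tested. The median log2 fold change of the 80 was 0.00, and that of all genes tested 0.02. Medians by complex, over members with a base mean of at least 50, were 0.04, -0.11, 0.01, -0.02 and -0.01 for complexes I to V in the authors' deposited table. The 3 members with the smallest p were Ndufb2, a membrane-arm subunit of complex I, at a log2 fold change of 0.54 ± 0.23 (standard error, adjusted p = 0.13), Atp5a1 at -0.28 ± 0.12 (adjusted p = 0.14) and the Rieske protein gene Uqcrfs1 at -0.30 ± 0.14 (adjusted p = 0.16), by DESeq2 in the authors' deposited table. Apart from Cox4i2 (0.69 ± 0.38), no member with a base mean of at least 50 exceeded that of Ndufb2.

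Ruxolitinib likewise changed no member past the test. In the authors' deposited table from DESeq2, 0 of 80 members passed, against 2.96% of the 15448 genes tested. An unadjusted p under 0.05 in DESeq2 was found for 0 members and for 1969 of all genes tested. The median of the 80 was 0.08, beside 0.01 for all genes tested. By complex the medians in the authors' deposited table were 0.08, 0.01, 0.12, 0.02 and 0.10, and 58 of the 79 members with a base mean of at least 50 lay above 0. The smallest p belonged to Cox4i2 (0.58 ± 0.38, adjusted p = 0.59), Ndufb2 (0.34 ± 0.23, adjusted p = 0.60) and Cox7a2l (-0.25 ± 0.17, adjusted p = 0.61), by DESeq2 in the authors' deposited table. A p that misses the threshold does not show that a level was unaltered: the standard errors of the 79 members reached 0.49, for Atp5e.

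The combination changed 12 members, 8 upward and 4 downward. In the authors' deposited table from DESeq2, 12 of 82 members passed, while 23% of all 19228 genes tested did (12.9% higher and 10.2% lower), so the share among members was below the background. Those that rose encode small subunits, with a median of 109 residues, in a family that is itself small. The median over the 79 members with a base mean of at least 50 was 141 residues. The 8 that rose were Ndufa2, Ndufa6, Ndufa7, Ndufa13 and Ndufb2 of complex I, Uqcrh of complex III, Cox7a2l of complex IV and Atp5e of complex V. Those that fell encode large subunits, with a median of 608.5 residues: Ndufs1 of complex I, Sdha of complex II, and Atp5a1 and Atp5b of complex V. The members' median was 0.20, beside 0.06 for all genes tested, and 60 of the 79 members with a base mean of at least 50 lay above 0. Medians by complex were 0.24, -0.14, 0.06, 0.33 and 0.12 in the authors' deposited table, with 30 of 36, 1 of 4, 6 of 9, 11 of 13 and 12 of 17 members above 0. Without the authors' filter on low counts 10.6% of all genes passed and 7 of the 12 still did, as Atp5e, Ndufb2, Atp5a1, Atp5b and Sdha lost the call.

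**Figure D2:**
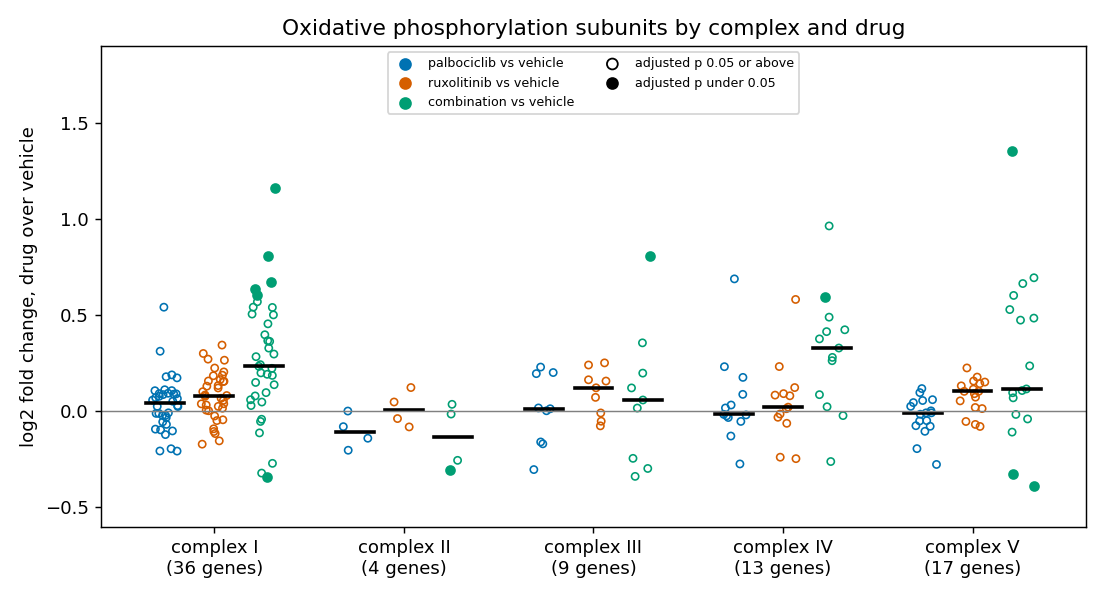
Log2 fold change against vehicle of each member with a base mean of at least 50, by complex, for the 3 drug comparisons, from the authors' deposited tables; filled points passed at an adjusted p under 0.05 and black bars are medians. Filled points occur in the combination alone, 8 above 0 and 4 below.

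In complex I, 5 of 37 members tested rose with the combination and 1 fell, beside 12.9% higher and 10.2% lower among all genes tested. Ndufa2, an accessory subunit of the NADH-oxidising arm, had levels of 1379, 1465, 1417 and 3085 normalised reads in vehicle, palbociclib, ruxolitinib and the combination, solved from the authors' deposited tables. Its log2 fold change with the combination was 1.16 ± 0.33 (DESeq2 adjusted p = 0.0047) in the authors' deposited table. The combination interval, 2246 to 4237 normalised reads at 95%, did not overlap that of vehicle, 1004 to 1895, and both single drugs lay inside the vehicle interval.

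Ndufa6, a LYR-motif subunit that binds the acyl carrier protein, stood at 1675, 1743, 1646 and 2547 normalised reads in the same order, and its gene spans chr15:82350140-82354322 (minus strand). It rose by 0.60 ± 0.17 (adjusted p = 0.0046, DESeq2) in the authors' deposited table. Ndufa13, also known as GRIM-19, stood at 1551, 1925, 1701 and 2716 normalised reads and rose by 0.81 ± 0.24 (adjusted p = 0.0080, DESeq2) in the authors' deposited table. In both genes only the combination interval lay wholly above that of vehicle, but for Ndufa13 the palbociclib level stood between them. Ndufa7 stood at 1314, 1498, 1536 and 2093 normalised reads and rose by 0.67 ± 0.23 (adjusted p = 0.019, DESeq2) in the authors' deposited table. Ndufb2 was the weakest of these in abundance, at 247, 359, 313 and 383 normalised reads, and rose by 0.63 ± 0.23 (adjusted p = 0.034, DESeq2) in the authors' deposited table. For Ndufb2 the intervals of palbociclib and the combination overlapped over most of their range.

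Of all genes tested 23% passed with the combination. Of the 7 nuclear core genes of complex I, which carry its flavin and iron-sulfur clusters or the quinone site, 1 passed. This was Ndufs1, the largest iron-sulfur subunit (chr1:63143596-63176833, minus strand). It stood at 4113, 3593, 4224 and 3243 normalised reads and fell by 0.34 ± 0.10 (adjusted p = 0.0085, DESeq2) in the authors' deposited table. Its modelled spread between libraries, a coefficient of variation of 0.0871, was the smallest among the 79 members. Of the others, Ndufv2, which holds a single cluster of the NADH site, had 0.40 ± 0.18 (adjusted p = 0.089) and Ndufs3 0.36 ± 0.16 (adjusted p = 0.074) by DESeq2 in the authors' deposited table. Ndufs8, Ndufs7 and Ndufv1, which binds NADH, lay between -0.11 and 0.22 there.

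Complex II, succinate dehydrogenase, has no mitochondrially encoded part and also works in the tricarboxylic acid cycle. Of its 4 genes Sdha, the flavoprotein (chr13:74322254-74350280, minus strand), fell with the combination, beside 10.2% of all genes tested. Its levels were 12502, 11343, 12177 and 10104 normalised reads, and the authors' deposited table gave -0.31 ± 0.12 (adjusted p = 0.040, DESeq2). The vehicle interval, 11178 to 13984, and the combination interval, 9031 to 11306, overlapped slightly. This was the call nearest to the threshold, and it was lost when fold changes were recentred on the median of all genes. The membrane anchors Sdhc and Sdhd had -0.26 ± 0.12 (adjusted p = 0.11) and 0.04 ± 0.17 (adjusted p = 0.90), and the iron-sulfur subunit Sdhb -0.01 ± 0.18 (adjusted p = 0.97), by DESeq2 in the authors' deposited table.

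In complex III, 1 of 9 members passed with the combination, beside 23% of all genes tested. Uqcrh, the acidic hinge protein that helps cytochrome c dock, stood at 2899, 3320, 3154 and 5079 normalised reads and rose by 0.81 ± 0.25 (adjusted p = 0.0087, DESeq2) in the authors' deposited table. Its combination interval, 4005 to 6442, lay above that of vehicle, 2285 to 3677. The core proteins Uqcrc1 and Uqcrc2, which are long transcripts in this family, had -0.34 ± 0.14 (adjusted p = 0.067) and -0.25 ± 0.14 (adjusted p = 0.21), and the cytochrome gene Cyc1 -0.30 ± 0.21 (adjusted p = 0.32), by DESeq2 in the authors' deposited table. Uqcrfs1, which carries the Rieske cluster, had levels of 3332, 2700, 3161 and 3470 normalised reads, lowest with palbociclib.

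In complex IV, 1 of 15 members passed with the combination, beside 23% of all genes tested. Cox7a2l encodes SCAF1, a factor that joins complexes III and IV into supercomplexes, and C57BL/6 mice are known to carry a short form of it. Its levels were 4962, 5021, 4183 and 7502 normalised reads. The authors' deposited table gave 0.60 ± 0.17 for the combination (adjusted p = 0.0049, DESeq2), 0.02 ± 0.17 for palbociclib and -0.25 ± 0.17 for ruxolitinib. The combination interval, 6368 to 8838, lay above those of the other 3 groups. Cox7a2, the form of the same family in ordinary complex IV, stood at 1869, 1546, 1981 and 1559 normalised reads, with -0.26 ± 0.22 (adjusted p = 0.40, DESeq2) in the authors' deposited table. Cox7a2l thus made up 60.8% of the 2 genes' reads per kilobase in vehicle, 65.5% with palbociclib, 55.2% with ruxolitinib and 73.7% with the combination. Cox4i1, the main regulatory subunit, stood at 9400, 9061, 9306 and 13196 normalised reads, with 0.49 ± 0.23 (adjusted p = 0.11, DESeq2) in the authors' deposited table.

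Complex IV has paired forms that are used in different tissues. Cox4i2, the form known from lung, was 0.470% of Cox4i reads per kilobase in vehicle and 0.784%, 0.709% and 0.652% in palbociclib, ruxolitinib and the combination. Its levels were 43.3, 69.8, 64.8 and 84.5 normalised reads, and the authors' deposited table gave 0.96 ± 0.38 for the combination (adjusted p = 0.052, DESeq2). Cox6b2, known as a testis form, was well expressed, at 786, 888, 666 and 1047 normalised reads. It made up 26.1%, 29.0%, 23.4% and 26.0% of Cox6b reads per kilobase. The muscle forms Cox6a2 and Cox7a1 were under 1% of their pairs in every group.

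In complex V, 1 of 17 members rose with the combination and 2 fell, beside 12.9% higher and 10.2% lower among all genes tested. The 3 belong to F1, the part outside the membrane that holds the catalytic sites and the central stalk. Atp5b, whose product holds the catalytic sites (chr10:128083273-128090391, plus strand), stood at 39853, 34828, 40236 and 30423 normalised reads. It fell by 0.39 ± 0.15 (adjusted p = 0.038, DESeq2) in the authors' deposited table. Atp5a1, its alpha partner, stood at 34176, 28211, 32590 and 27218 normalised reads and fell by 0.33 ± 0.12 (adjusted p = 0.032, DESeq2) in the authors' deposited table. Both were also lower in palbociclib than in vehicle, without passing there. Atp5e, the small epsilon subunit of the central stalk (chr2:174461072-174464105, minus strand), stood at 2617, 2602, 3059 and 6678 normalised reads. It rose by 1.35 ± 0.49 (adjusted p = 0.032, DESeq2) in the authors' deposited table, a fold of 2.55 with a 95% interval of 1.30 to 4.99. Its modelled coefficient of variation, 0.419, was the highest of the 79 members, and its vehicle and combination intervals, 1628 to 4205 and 4157 to 10730, overlapped slightly. The gamma and delta subunit genes Atp5c1 and Atp5d had 0.10 ± 0.12 and 0.11 ± 0.17 in the authors' deposited table. The 3 genes of the c ring, Atp5g1, Atp5g2 and Atp5g3, encode the same mature protein. They held 20.8%, 44.5% and 34.8% of its reads per kilobase in vehicle and 21.0%, 45.6% and 33.4% in the combination.

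**Figure D3:**
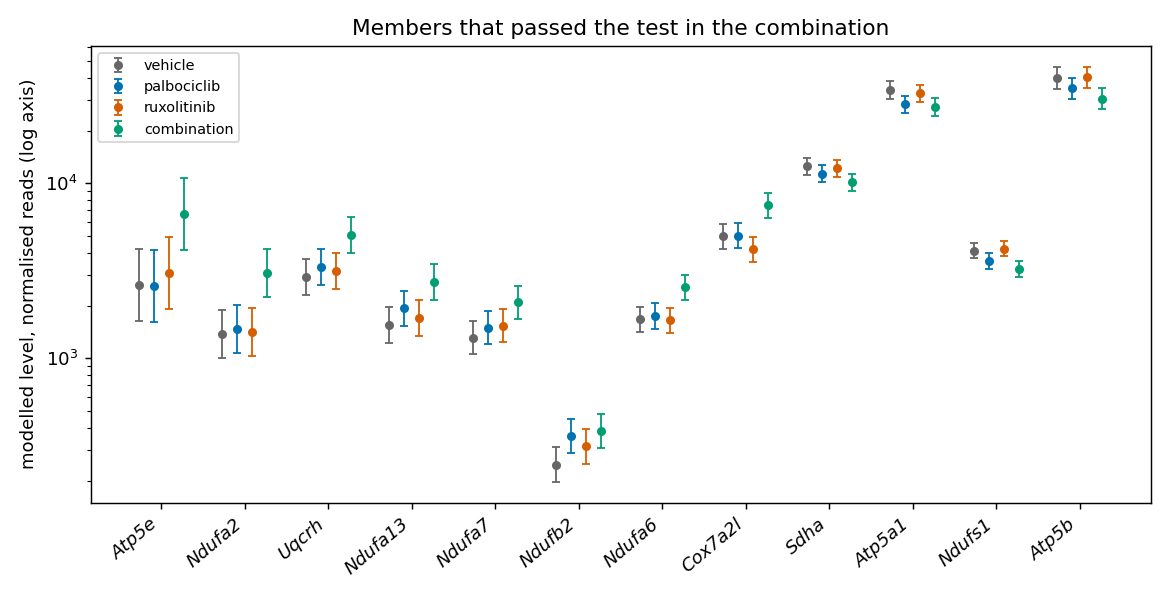
Modelled level in normalised reads (log axis) of the 12 members that passed in the combination, in each group, solved from the authors' deposited tables; bars are 95% intervals. In 8 members the combination is the highest group and in 4 the lowest.

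The members that rose were short transcripts and those that fell were long ones. The 8 that rose had a median transcript length of 559.5 bases, from 421 to 1251, and the 4 that fell a median of 2530.5, from 1916 to 2900. Over the 79 members with a base mean of at least 50 the median was 714 bases. Among the 64 members of up to 1500 bases the median log2 fold change with the combination was 0.27 in the authors' deposited table, and 8 were below 0. Among the 15 longer ones it was -0.26, and 11 were below 0. Medians of other protein-coding genes with a base mean of at least 50 also declined with length. Up to 500 bases the median in the authors' deposited table was 0.41 for 15 members and 0.43 for 79 other genes. From 500 to 750 bases it was 0.34 for 28 members and 0.34 for 278 others. From 1500 to 2000 bases it was -0.08 for 10 members and 0.06 for 1394 others, and from 2000 to 3000 bases -0.33 for 4 members and -0.04 for 2682 others. Spearman's rho of fold change with length across genes, which are not independent replicates, was -0.46 over 79 members and -0.29 over 11026 others in the combination. It was -0.36 and -0.21 with palbociclib and -0.22 and -0.18 with ruxolitinib, and all 3 comparisons share the vehicle libraries. Whether the decline differed between members and other genes was not tested. Fold change also declined with base mean. Spearman's rho with base mean was -0.39 over the 79 members and -0.32 over the others in the combination. It was -0.37 and -0.27 with palbociclib and -0.23 and -0.13 with ruxolitinib. Atp5b, Atp5a1, Sdha and Ndufs1, which fell, had base means of 35024, 29762, 11345 and 3594. Those of the 8 that rose ran from 318 (Ndufb2) to 5319 (Cox7a2l). Length and base mean were not separated.

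Each fold change was also recentred on the median of the protein-coding genes in its length bin, members included, a step added after the data were seen. In the combination 8 members then passed, against 25.6% of genes, and 4 of the 12 kept the call. Those were Cox7a2l (0.45, adjusted p = 0.038) and Ndufa13 (0.66, adjusted p = 0.033), which were higher, and Ndufs1 (-0.31, adjusted p = 0.019) and Atp5b (-0.44, adjusted p = 0.016), which were lower, by the Wald test on the deposited errors. The other 8 lost it. Atp5a1 (-0.29, adjusted p = 0.057) and Sdha (-0.27, adjusted p = 0.070) stayed close to their deposited fold changes of -0.33 and -0.31, and Ndufa2 stood at 0.82 (adjusted p = 0.052) after 1.16. Uqcrh (0.47), Atp5e (0.93), Ndufa6 (0.26), Ndufa7 (0.33) and Ndufb2 (0.21) had adjusted p from 0.15 to 0.53 by the same Wald test. Cox7a2 (-0.61), Uqcrc1 (-0.39), Atp5g3 (-0.45) and Ndufa9 (-0.42) then passed as lower. The members' median became -0.03 with the combination. It became 0.02 with ruxolitinib, from 0.08, and -0.07 with palbociclib, from 0.00. By complex the recentred medians with the combination were 0.02, -0.14, -0.30, -0.01 and 0.02. The higher medians of complexes I and IV were thus no longer seen, and that of complex III turned from 0.06 to -0.30. The median transcript was 745, 2065.5, 547, 645 and 680 bases in complexes I to V. GENCODE lengths may differ from those used by these cells: for Ndufa13 the RefSeq start lies well inside the GENCODE transcript, and for Cox7a2l the starts are at different places. The part of transcript length in the calls was not tested beyond this recentring.

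**Figure D4:**
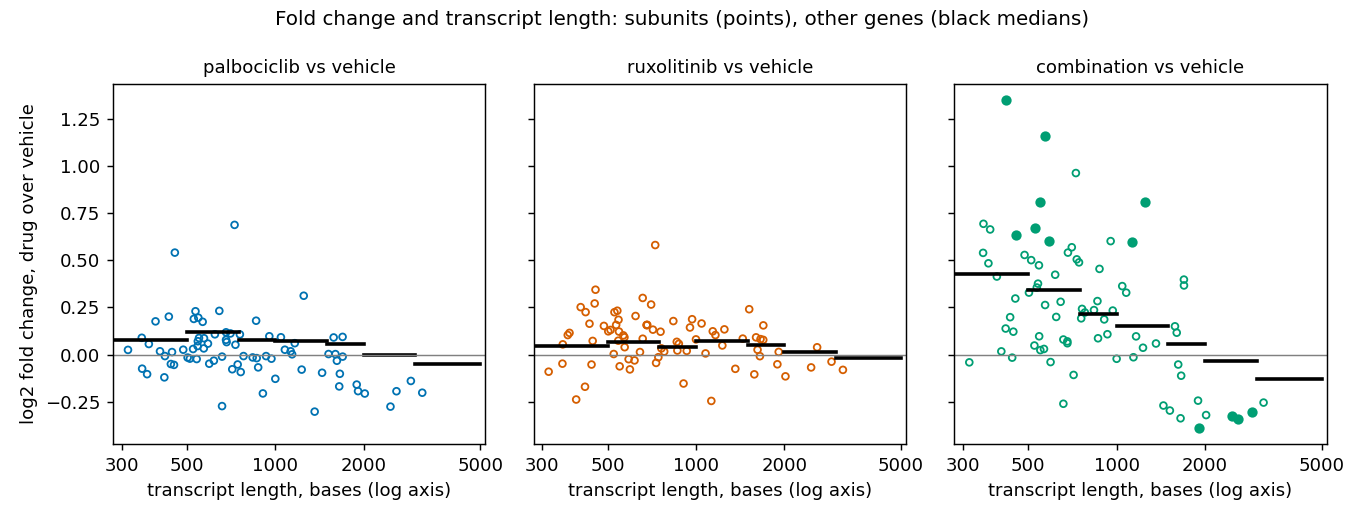
Log2 fold change against vehicle and transcript length (log axis) for each member with a base mean of at least 50, in the 3 comparisons; filled points passed, and black bars are medians of other protein-coding genes in the same length bin. In the combination the bars run from 0.43 in the shortest bin to -0.13 between 3000 and 5000 bases. Of the 15 members over 1500 bases, 11 lie below 0 there.

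Markers of other cells also moved with the combination. All 8 plasma cell genes rose there in the authors' deposited table, and their summed level in normalised reads was 4657 for vehicle, 14892 for palbociclib, 3127 for ruxolitinib and 264918 for the combination, of which Jchain held 252586. Of the 6 B cell genes 2 rose with the combination, Cd79a and Cd79b, and the B cell genes Ms4a1 and Pax5 stayed at base means of 1.59 and 1.11. In the neutrophil list 4 of 8 rose and 2 fell with the combination, 5 rose and 2 fell with palbociclib, and 2 fell with ruxolitinib. Its summed level, mostly Mpo, was 108218 normalised reads for vehicle and 32898, 34196 and 15992 for the 3 drug arms in the order palbociclib, ruxolitinib and combination. All 6 monocyte genes fell with each drug in the authors' deposited tables, from a sum of 13158 normalised reads in vehicle to 3090, 4014 and 2131. Of the 8 erythroid genes 3 rose and 1 fell in the combination, 2 fell with palbociclib and 3 with ruxolitinib. In bulk RNA, fewer cells of a type and less RNA per cell cannot be told apart, and the part of these cells in the members' changes was not tested.

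The combination differed from ruxolitinib for 1 member and from palbociclib for none when the covariance from the shared vehicle libraries was ignored. Cox7a2l was 0.84 ± 0.24 higher on the log2 scale in the combination than with ruxolitinib (adjusted p = 0.037, normal test on the authors' deposited tables), where 1.62% of all genes tested passed. With variances recovered for each group, which restores the covariance, 9 of 80 members passed, 7 higher and 2 lower, against 20.1% of genes (11.7% higher and 8.33% lower). These were Cox7a2l, Ndufa6, Ndufa2, Cox6b2, Uqcrh, Ndufa13 and Ndufb10, which were higher with the combination, and Ndufs1 and Atp5b, which were lower. The Cox6b2 difference was 0.65 ± 0.22 (adjusted p = 0.022) and that of Ndufb10, a membrane-arm subunit, 0.55 ± 0.21 (adjusted p = 0.045) by this Wald test on the authors' deposited tables.

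Against palbociclib the first test called 0 of 80 members, with 3 at an unadjusted p under 0.05, where 0.0129% of genes passed. With recovered variances Cox7a2l alone passed, at 0.58 ± 0.17 (adjusted p = 0.043), against 2.12% of genes. Ndufa2 (1.07 ± 0.33, adjusted p = 0.051) and Ndufa6 (0.55 ± 0.17, adjusted p = 0.057) were just beyond the threshold of the same Wald test on the authors' deposited tables. Palbociclib and ruxolitinib differed for 0 of 80 members by either test, with 0 and 1 at an unadjusted p under 0.05, against 0.142% and 0.977% of genes. The 1 was Ndufs1, lower with palbociclib by a log2 difference of -0.23 ± 0.10 (adjusted p = 0.39, Wald test with recovered variances on the authors' deposited tables).

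Other genes of the mitochondrion were counted from lists. Of the 13 subunits encoded in mitochondrial DNA, 2 rose with the combination, a share near the 12.9% of all genes tested: mt-Nd6 by 1.20 ± 0.40 (adjusted p = 0.017) and mt-Co2 by 0.92 ± 0.34 (adjusted p = 0.035), by DESeq2 in the authors' deposited table. Their median was 0.05 with the combination, -0.34 with palbociclib and 0.19 with ruxolitinib. With either single drug 0 passed, beside 8.63% and 2.96% of genes tested. An unadjusted p under 0.05 in DESeq2 was found for 2 and 0 of them, beside 3453 and 1969 of 15448 genes. Selection of polyA RNA captures these transcripts unevenly, and mt-Nd6 is known for a missing or short tail. Of 48 assembly factors tested, 5 rose (Pet100, Sco2, Sdhaf4, Uqcc3 and Cox14) and 2 fell (Coa5 and Cox10) with the combination, shares near or below those of all genes (12.9% higher and 10.2% lower), and Coa5 also fell with palbociclib, by 0.33 ± 0.10 (adjusted p = 0.023, DESeq2) in the authors' deposited table. Sco2, a copper chaperone of complex IV, rose by 1.15 ± 0.36 (adjusted p = 0.012, DESeq2) with the combination in the authors' deposited table.

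Of 19 genes of the tricarboxylic acid cycle and pyruvate dehydrogenase, 6 fell with the combination and 0 rose, beside 10.2% lower and 12.9% higher among all genes tested, with a median of -0.27 in the authors' deposited table. Among them were Cs (citrate synthase), Ogdh, Dlst, Pdha1 and Dlat. Dlat, the acetyltransferase of pyruvate dehydrogenase, fell by 0.68 ± 0.14 (adjusted p = 3.6e-05, DESeq2) and Cs by 0.62 ± 0.18 (adjusted p = 0.0049, DESeq2) in the authors' deposited table. With palbociclib Pdhx alone fell among the 19. In the list of mitochondrial transcription and biogenesis 5 of 21 fell with the combination, beside 10.2% of all genes: Yy1, Gabpa, Gabpb2, Polg and Pprc1. Yy1 and Gabpa, which encode YY1 and the DNA-binding part of GABP, fell by 0.41 ± 0.09 (adjusted p = 0.00028) and 0.51 ± 0.15 (adjusted p = 0.0053) with the combination. With palbociclib they fell by 0.31 ± 0.09 (adjusted p = 0.017) and 0.43 ± 0.15 (adjusted p = 0.041), all by DESeq2 in the authors' deposited tables. Nrf1 had -0.23 ± 0.13 (adjusted p = 0.17) and the mitochondrial DNA factor Tfam 0.25 ± 0.13 (adjusted p = 0.15) with the combination in the authors' deposited table.

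Of 26 genes of protein import 3 fell with the combination, the chaperone Hspa9, the channel Tomm40 and Timm29, a share near the 10.2% of all genes. Of 10 electron carriers and ADP exchangers 1 rose, near the 12.9% of all genes. This was Etfb, by 1.21 ± 0.36 (adjusted p = 0.0064, DESeq2) in the authors' deposited table. With ruxolitinib 0 genes of these lists passed in DESeq2, beside 2.96% of genes tested. At an unadjusted p under 0.05 in DESeq2 there were 3, which were 2 assembly factors and 1 biogenesis gene, beside 1969 of 15448 genes. Of 77 mitochondrial ribosomal protein genes 3 rose and 3 fell with the combination (median -0.01), and of 79 cytosolic ones 60 rose (median 0.63) in the authors' deposited table, beside 12.9% higher and 10.2% lower among all genes tested. Their median transcripts were 1288 and 703 bases.

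Several members share exon bases with a gene on the other strand, and the labels do not say whether strand was kept, so reads there cannot be told apart. Among the 12 that passed, Ndufb2 shares 146 bases with Braf, Ndufa2 66 with Tmco6, Ndufa13 375 with Tssk6, Atp5a1 129 with Haus1 and Ndufs1 489 with Ino80dos. The base means of these 5 members were 318, 1600, 1804, 29762 and 3594. Those of their partners were 1695, 822, 18.1, 1268 and 261 in the same order. Ndufs1 also shares 9 bases with Eef1b2, which had a base mean of 26800. The part of such reads in the calls was not tested. Atp5j shares 397 bases with Gabpa. Subunit genes also have many processed pseudogenes, and how reads matching several places were counted is not given in the sources used here. The pseudogene row Cox7c-ps1, with a base mean of 8.38, rose by 2.47 ± 0.97 with the combination (adjusted p = 0.049, DESeq2) in the authors' deposited table.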

How the data were processed

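The deposited files used here were the authors' 3 tables of DESeq2 results, 1 for each drug arm against vehicle. The submitters' processing notes list, with no settings, the build GRCm38 and the tools DESeq2 (version not given in the sources used here), featureCounts 2.0.0, SAMtools 1.10, HISAT2 2.0.1 and fastp 0.20.0. The authors' base mean, a signal, averages the counts after division by size factors. The authors' deposited estimates also hold a log2 fold change with standard error, a score (the Wald statistic) and a p-value with its Benjamini-Hochberg adjustment after filtering on low counts. Nothing was refitted, and the threshold was 0.05 on the adjusted p.

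From the tables, size factors were read from genes with 1 read in 1 library. The vehicle level and dispersion of each gene were solved from its 3 standard errors, given its log2 fold changes and the size factors. The base mean served only as the starting value and did not constrain the level. This was done in Python 3.11.15 (scipy 1.17.1, numpy 2.4.6, pandas 2.3.3, and matplotlib 3.10.9 for figures). The solution met the equations within 1e-06 for 18546 of 19228 genes (96.5%) and for all 82 members tested. Intervals of levels use the modelled variance and cover counting error and that spread only. Differences between arms were tested by dividing the difference of the deposited log2 values by the root sum of their squared errors (a 2-sided normal test with Benjamini-Hochberg adjustment over all genes), and again with the recovered group variances. The recovery of levels and the tests of differences between arms were tested on simulated data, with the size factors taken as known. The reading of size factors, the departure from the sum and the recentring by length were not simulated.

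Lengths and coordinates came from GENCODE mouse release M21 on GRCm38, using the transcript with the longest coding sequence. Alternatives were the threshold, the filter, the scaling, the error model and, added after the data were seen, length bins, the numbered -ps symbols and the departure from the sum of both drugs. Genes were named by a rule: per complex and comparison the smallest p values and extremes, all Sdh and complex I core genes, paired isoforms, the smallest p values of each difference and list, and members that passed. The members, the lists and the rule were chosen with earlier results of these data known, and other named genes after their values were seen. The NRF1 word searched in promoters was shortened after matches of a longer form, which were fewer and in no member that passed, had been seen. Values of some single genes of the lists are not reported here.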

Additional observations from a re-analysis of the deposited data

Results flagged for a closer look

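Cox7a2l was the member whose combination effect departed from the sum of both single-drug effects. In the authors' deposited tables its log2 fold changes against vehicle were 0.02 ± 0.17 with palbociclib, -0.25 ± 0.17 with ruxolitinib and 0.60 ± 0.17 with the combination. The departure from the sum was 0.83 ± 0.24 on the log2 scale (adjusted p = 0.040, Wald test with variances recovered from the deposited errors), and 2.12% of 15356 genes passed that test. With the covariance of the shared vehicle libraries ignored, the same departure had a standard error of 0.30 and an adjusted p of 0.32. The comparison was added after the data were seen. It passed for 1 of 80 members. An unadjusted p under 0.05, by the Wald test with recovered variances, was found for 5 members and for 2700 of the 15356 genes.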

How the results depend on the processing

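No paired analysis was possible because values of single libraries were not used, so no fit with a replicate block and no fit without a library could be made. With palbociclib and ruxolitinib the count of members that passed was 0 under each alternative run. Of all genes, 2.59% to 13% passed with palbociclib under these alternatives and 0.824% to 4.3% with ruxolitinib. In the combination it was 12, where 23% of all genes tested passed. It became 21 at an adjusted p under 0.1 (30.1% of genes) and 7 without the filter on low counts (10.6%). At a base mean of at least 50 it was 15 (33%). It was 12 when recentred on the median of all genes (22.9%) and 13 with the 6 numbered -ps symbols (23%). Within length bins it was 8, against 25.6% of genes, and 4 of those 8 were among the 12. The split turned from 8 higher and 4 lower to 2 higher and 6 lower. The combination median, 0.20, became -0.033 within length bins, a change of sign, and the recentred median of complex III was -0.30 in place of 0.06. A mean weighted by the inverse squared error gave 0.10 for the combination, 0.04 for ruxolitinib (median 0.08) and -0.02 for palbociclib (median 0.00). Within length bins the ruxolitinib median went from 0.08 to 0.02 and the palbociclib median from 0.00 to -0.07. The medians of the single drugs moved by less than the median standard error of a member, 0.21, under each alternative run. That error is larger than either median, so this bound is a loose one. Members that differed between the combination and ruxolitinib numbered 1. They became 9 with a correlation of 0.5 between estimates and 9 with recovered variances, against 20.5% and 20.1% of genes. Between the combination and palbociclib the count of 0 became 2 and 1 in the same order, against 2.51% and 2.12% of genes. The departure from the sum, seen for 1 member, became 0 with summed squared errors. None of the 12 single members changed sign under the alternatives run. Of them 8 lost the call within length bins, where Atp5a1 (-0.29) and Sdha (-0.27) kept most of their fold change. Without the low-count filter 5 lost it, with the same fold changes and adjusted p from 0.056 to 0.070 after Benjamini-Hochberg adjustment of the authors' DESeq2 p-values, and 1, Sdha, when recentred on the median of all genes (adjusted p = 0.052). The cause of these changes was not tested. Depth per library was not given by the tables, and 3 libraries a group limit the errors.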
